A study of Mus musculus with 15 samples.

Results

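Cacna2d1 and Cacna2d2 encode alpha2delta-1 and alpha2delta-2, auxiliary subunits of voltage-gated calcium channels. The contacts of their promoters were taken as every row of the deposited interaction score matrix that carried either gene name. This gave 59 listings of a promoter with a HindIII fragment, 53 for Cacna2d1 and 6 for Cacna2d2, of 36353 listings for 4429 promoters. Both genes were chosen by their contact numbers and scores in these same libraries. Their values are therefore given as a description, and no test of them is offered as support.

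The data were promoter-capture Hi-C libraries, in which DNA crosslinked in nuclei is cut, ligated to its neighbours and enriched for promoter ends. A score is taken here to stand for how strongly a promoter was joined to a distant fragment, although its unit was not stated. Nuclei came from the hippocampus of mice of the ArcCreERT2 x R26R-STOP-floxed-eYFP strain with genotype +/+, were stained for the neuronal protein NeuN and for GFP, and were sorted. In this strain the promoter of the activity-induced gene Arc drives a tamoxifen-dependent Cre, which switches on the yellow label in cells active around the time of the drug. Libraries were titled Basal (3), Early (4), Late (4) and Reactivated (4). Per the labels, all mice shared the strain, dark housing, 4-hydroxytamoxifen given 1 h before contextual fear conditioning, and tissue pooled from 10 to 12 animals to give 10000 nuclei per condition. Brains were taken either 1.5 to 2 h after the task, or 5 days later with or without a return to the tone and context. Treatment labels gave each library its own collection day, from 0 to 14 in sample order, and no recall, in conflict with that protocol. Otherwise the labels did not state which interval, exposure or sorted fraction each title stood for, and gave no age. The titles are therefore used as names only. The libraries measure DNA contacts and not expression, so the sorted cell type could not be checked against marker genes.

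Alpha2delta proteins sit on the outside of the cell membrane, are cleaved from a single precursor into linked parts, and raise the number of calcium channels at the surface and at presynaptic terminals. Alpha2delta-1 is bound by the drugs gabapentin and pregabalin, by thrombospondins secreted from astrocytes and by NMDA receptors. Alpha2delta-2 also binds gabapentinoids, is abundant in cerebellar Purkinje cells and is mutated in the ducky mouse, which has ataxia and absence seizures.

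The bases just upstream of both transcription starts are shown because these promoters are the captured ends of every contact below. Each run is the 250 bases before the start in RefSeq (GRCm38.p6), 5′ to 3′ on the gene's strand. Capitals mark matches to the GC box GGGCGG on either strand.
Cacna2d1: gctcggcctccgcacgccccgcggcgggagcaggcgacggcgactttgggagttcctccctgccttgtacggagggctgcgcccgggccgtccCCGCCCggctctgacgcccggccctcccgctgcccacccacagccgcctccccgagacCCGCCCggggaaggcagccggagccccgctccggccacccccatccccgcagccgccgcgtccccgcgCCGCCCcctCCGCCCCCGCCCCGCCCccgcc
Cacna2d2: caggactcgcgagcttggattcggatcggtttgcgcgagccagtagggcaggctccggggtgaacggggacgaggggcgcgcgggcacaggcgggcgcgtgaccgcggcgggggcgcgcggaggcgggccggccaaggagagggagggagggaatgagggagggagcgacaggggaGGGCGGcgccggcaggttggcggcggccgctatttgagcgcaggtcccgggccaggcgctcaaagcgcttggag
The Cacna2d1 window held 6 GC box matches, several of them overlapping or adjoining near its end, and the Cacna2d2 window held 1. The same letters occurred in 32.7% of the 32851 RefSeq promoter windows of this length. GC content was 82.4% for Cacna2d1 and 74.4% for Cacna2d2, against a median of 52.4%. The windows held 36 and 34 CG dinucleotides, more than 97.4% and 96.5% of the promoters, whose median was 6. Neither window held the HindIII site AAGCTT, the cAMP response element TGACGTCA or the TATA box TATAAA, letters found in 6.22%, 1.55% and 12.4% of all windows.

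The scores, all whole, ran from 2 to 13683, and 84.7% of the matrix was empty. A contact with a score of at least 5 counts as a called interaction, and every listed score of both promoters reached that. Libraries differed widely, from 35 scored listings in Reactivated 1 and 388 in Reactivated 2 to 12133 in Reactivated 4. Within groups, several libraries listed largely the same fragments. Where a pair shared at least 40% of the smaller library's distinct scored fragments, it is named below as 1 library set. Together with the single libraries this gave 9 sets, namely Basal 1/2, Basal 3, Early 1, Early 2, Early 3/4, Late 1/2, Late 3/4, Reactivated 1/2 and Reactivated 3/4. Unless sets are said to be counted once or entered as means, the fits and every SD count each library separately, as if independent. The labels name no animals behind a library, so the spread between libraries may in part be technical. Reactivated 1 and Reactivated 2 held no contact of either promoter, and values without them are given where they change a direction.

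The Cacna2d2 promoter was set apart by a single fragment scored in all Early and all Late libraries and in no Basal or Reactivated library. It lay at chr9:107291564-107293457 (mm9). Its scores were 76, 768, 353 and 228 in Early 1 to 4 and 1167, 2455, 810 and 914 in Late 1 to 4. The lowest Late score exceeded the highest Early score, and both groups lay above the empty Basal and Reactivated libraries. On the asinh scale used for fitting, on which an absent score is 0, the mean was 6.26 ± 0.965 (SD, n = 4) in Early and 7.79 ± 0.497 (SD, n = 4) in Late. The difference between Late and Early was 1.53 with a standard error of 2.72 from the fit over all listings. That error was drawn toward a variance trend over all listings. It is not this fragment's own spread, which the SDs describe. In pooled nuclei, contact in fewer nuclei and weaker contact per nucleus cannot be told apart.

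Within its own library this fragment ranked 22 of 3435 scores in Late 1 and 13 of 3753 in Late 2. Its percentile among the scores of the library was 54.6, 87.8, 82.8 and 85.5 in Early 1 to 4, and 99.4, 99.7, 86.4 and 94.7 in Late 1 to 4. By percentile, Early and Late overlapped, since Early 2 at 87.8 passed Late 3 at 86.4. The step from Early to Late is therefore seen in the scores and not in every library's ranking. Only 2 of the 36353 listings (0.0055%) were scored in every Early and Late library and in no other, the second belonging to Phactr3, a regulator of protein phosphatase 1 that was named after its values were seen. A wider set of 22 listings was scored in all Early and all Late libraries.

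**Figure D1:**
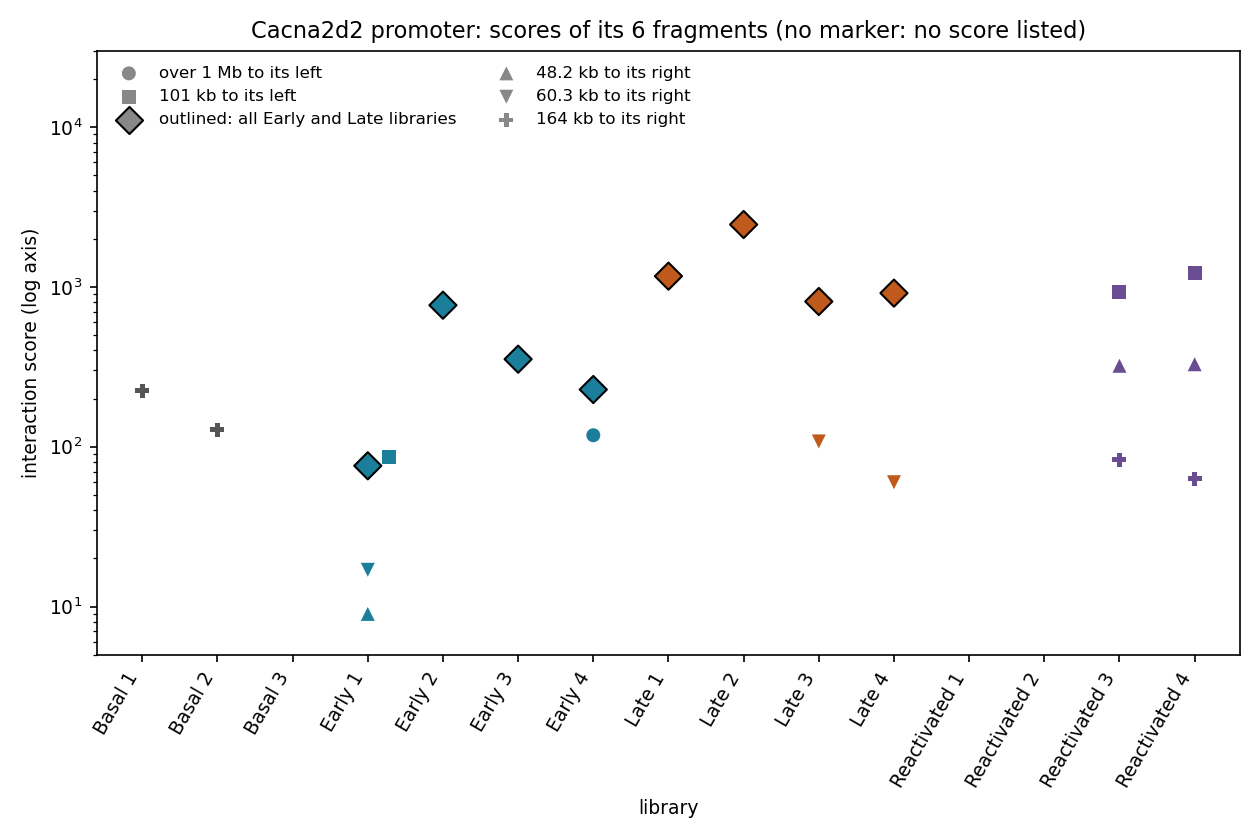
Score (log axis) of each of the 6 Cacna2d2 fragments in the 15 libraries, with 1 marker per listed score. The fragment at chromosome 9 position 107291564 is scored in all 8 Early and Late libraries, from 76 to 2455, and the other 5 fragments in 1 to 4 libraries each.

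The other 5 Cacna2d2 fragments were scored in 1 to 4 libraries each, and 3 of them lay to the right of that fragment. The farthest to the right within its neighbourhood, chr9:107457529-107461519, was separated from it by 164 kb and scored 224 in Basal 1, 128 in Basal 2, 83 in Reactivated 3 and 63 in Reactivated 4. It was absent from all Early and Late libraries, so its libraries did not overlap with those of the recurrent fragment. Such a pattern, with scores in Basal 1 and 2 and Reactivated 3 and 4 and none in Early or Late, held for 432 listings (1.19%), of which 2 belonged to the promoters described here.

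Beyond that pair, the Cacna2d2 contacts were carried mostly by Early 1 and Reactivated 3/4. The fragment chr9:107182258-107190931, 101 kb to the left, scored 86 in Early 1, 933 in Reactivated 3 and 1220 in Reactivated 4. The fragment chr9:107341621-107350698, 48.2 kb to the right, scored 9 in Early 1, 321 in Reactivated 3 and 328 in Reactivated 4. Both were also listed for another promoter with identical scores, the first for Rbm15b, an RNA-binding protein gene, and the second for Cyb561d2, a cytochrome b561 family gene that follows Cacna2d2 and Tmem115 in the RefSeq gene order. Their scores cannot be assigned to Cacna2d2 alone.

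The remaining pair was scored in Early and Late libraries alone. The fragment chr9:107353716-107357350, 60.3 kb to the right, scored 17 in Early 1, 108 in Late 3 and 60 in Late 4. The fragment chr9:106210969-106213284, 1080 kb to the left of the recurrent fragment, scored 118 in Early 4 only. The Cacna2d2 fragments thus held 22 scores from 9 to 2455, with a median percentile of 56.5 within their libraries.

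Cacna2d1 had the second-largest number of listed fragments of all promoters. Its 53 fragments tied with Phlpp1 and came after Crebzf with 163, against a median of 6 fragments per promoter. Cacna2d2, with 6, was at that median, and 57.4% of promoters had as many or more. The fragments were of usual length, with a median of 2951 bp for Cacna2d1 and 3813 bp for Cacna2d2 beside 2939 bp in the table.

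The number of called Cacna2d1 interactions was 3, 1 and 12 in Basal 1 to 3, and 14, 2, 11 and 11 in Early 1 to 4. It was 6, 7, 20 and 19 in Late 1 to 4, and 0, 0, 15 and 15 in Reactivated 1 to 4. Late 3 and 4 were highest and Reactivated 1 and 2 lowest, and the ranges of all 4 groups overlapped. The Basal mean was 5.33 ± 5.86 (SD, n = 3), the Early mean 9.5 ± 5.2, the Late mean 13 ± 7.53 and the Reactivated mean 7.5 ± 8.66 (SD, n = 4 each). With each library set counted once, they were 7, 9, 13 and 7.5, so Basal and Reactivated lay next to each other and the order Late over Early remained. No neighbours in this order differed by more than the SD of either.

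The Cacna2d2 promoter gave 1, 1 and 0 calls in Basal 1 to 3 and 4, 1, 1 and 2 in Early 1 to 4. Late 1 to 4 gave 1, 1, 2 and 2, and Reactivated 1 to 4 gave 0, 0, 3 and 3. Its group means were 0.667 ± 0.577 (SD, n = 3), 2 ± 1.41, 1.5 ± 0.577 and 1.5 ± 1.73 (SD, n = 4 each). The groups again overlapped, and Early led only through Early 1. Across the 15 libraries the numbers of calls of both promoters had a Spearman correlation of 0.741, a description over libraries that differ in total calls.

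**Figure D2:**
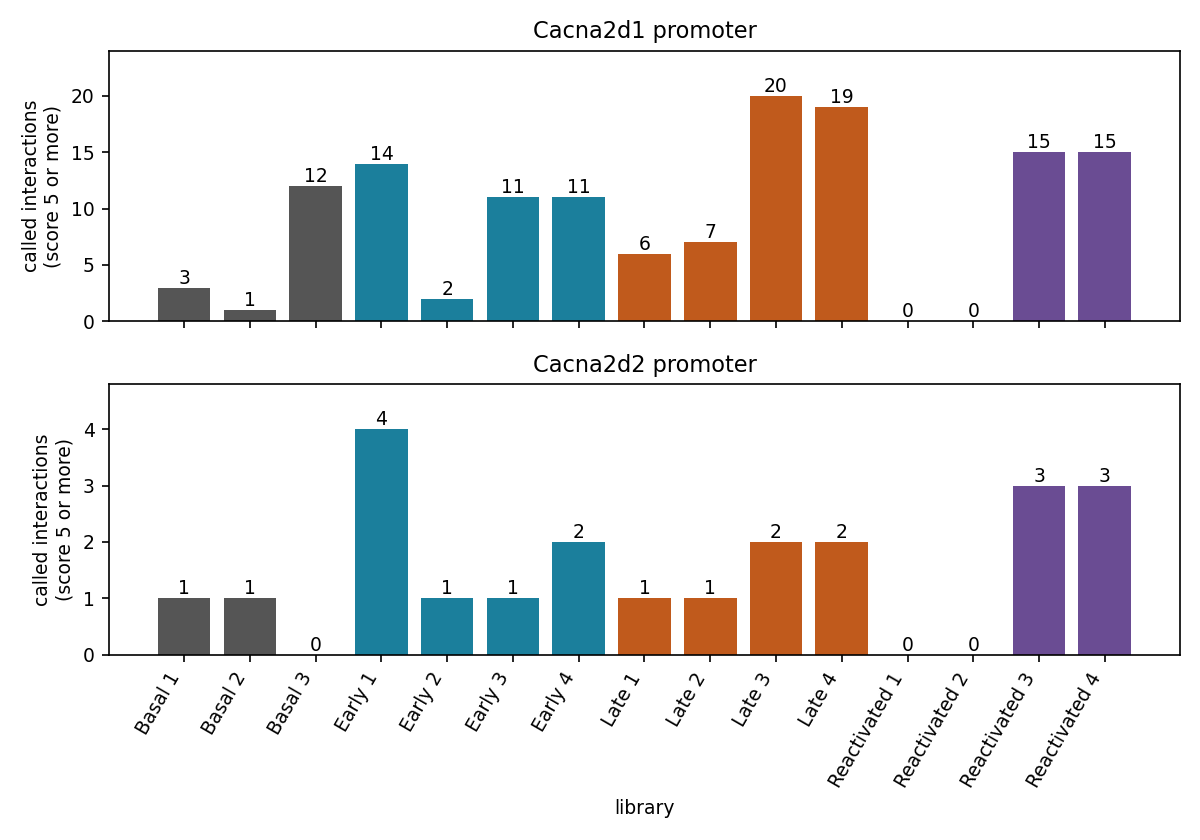
Number of called interactions (score of 5 or more) of each promoter in every library, coloured by group. Cacna2d1 ranges from 0 in Reactivated 1 and 2 to 20 in Late 3, and Cacna2d2 from 0 to 4.

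Of the 53 Cacna2d1 fragments, 46 formed a dense stretch at chr5:15054297-15836447 (mm9), 782 kb long, in which no gap between listed fragments exceeded 200 kb. They covered 142931 bp, or 18.3% of it. Positions of fragments relative to the Cacna2d1 transcription unit and the distance from the bait were not computed, since no annotation of this build and no bait positions were used here.

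Library sets placed their contacts in different portions of this stretch. Late 1 and Late 2 had all of theirs in the last of 4 equal segments of it (587 to 782 kb from its first base), 5 and 6 fragments respectively. Late 3 had 7 fragments between 196 and 391 kb and 9 between 391 and 587 kb, Late 4 had 6 and 9 there, and each had 3 in the last segment. Late 1/2, with 8 fragments in all, and Late 3/4, with 20, shared none.

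The other sets were also spread unevenly. Reactivated 3 and 4 each had 8 fragments between 196 and 391 kb, 4 in the next segment and 1 in the last. Early 1 had 2, 7 and 2 in the last 3 segments, and Early 3 and 4 each had 1, 2, 6 and 2 from first to last. Basal 3 had 0, 5, 3 and 3. The median position was 357 kb in Reactivated 3/4, 414 to 453 kb in the Early libraries, 415 and 416 kb in Late 3 and 4, and 733 and 731 kb in Late 1 and 2. In Basal it was 483 kb in Basal 1, on 2 fragments, and 415 kb in Basal 3. By median position, Late is thus the group whose own library sets lay farthest apart, and a mean position for Late would describe neither.

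**Figure D3:**
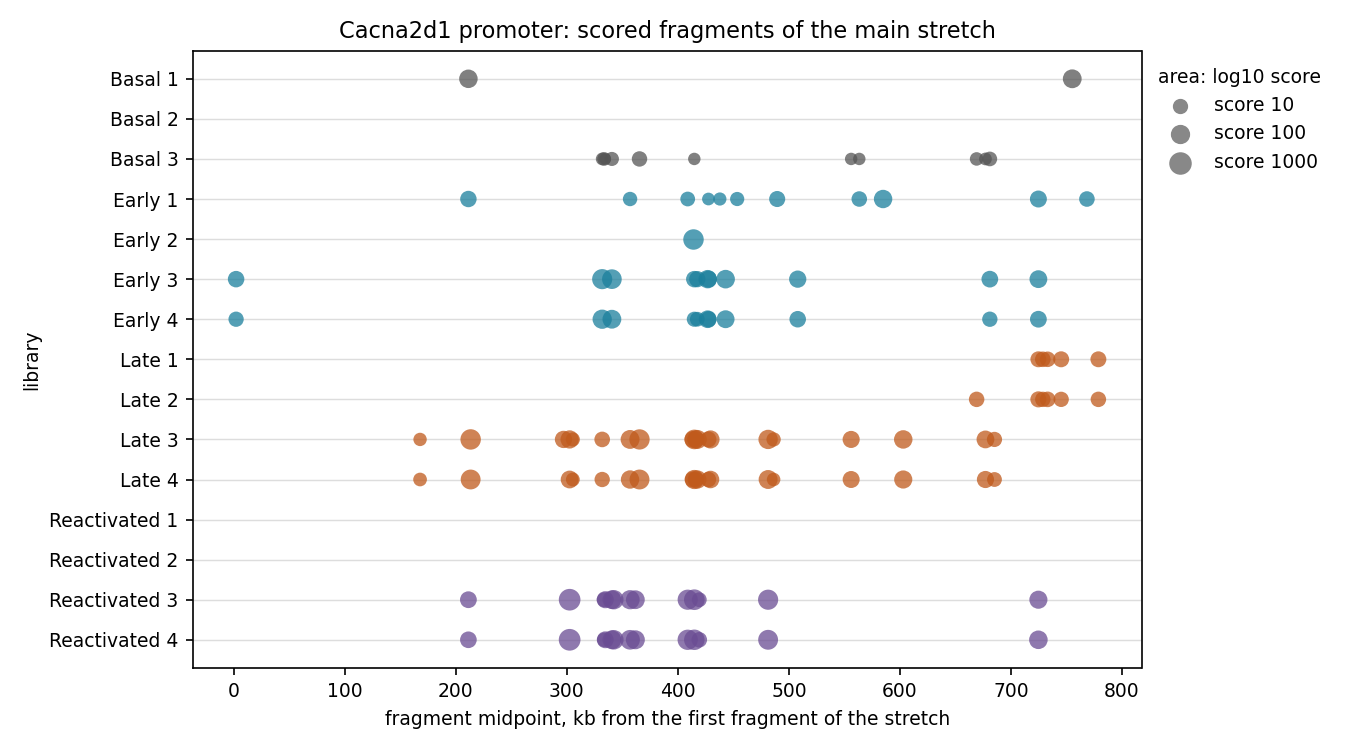
Scored fragments of the main Cacna2d1 stretch, by library (rows, coloured by group) and by midpoint in kb from the first fragment (horizontal axis), with marker area growing with log10 score. Late 1 and 2 have markers only beyond 587 kb, and Late 3 and 4 have most of theirs between 196 and 587 kb.

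Contacts at Cacna2d1 were mostly found in a single library set. Of 53 fragments, 30 (56.6%) were scored in 1 set, 23 in at least 2, 7 in at least 3 and 2 in 4. The corresponding share in 1 set was 65.6% over all listings and 64.4% over the other 300 promoters with at least 20 fragments. By group, Basal libraries scored 15 of them, Early libraries 25, Late libraries 28 and Reactivated libraries 15. Those found in that group only numbered 2 (13.3% of the group's), 12 (48.0%), 13 (46.4%) and 3 (20.0%), while over all listings these shares were 32.2%, 50.8%, 49.9% and 50.4%. Basal and Reactivated contacts of Cacna2d1 were thus mostly also listed in another group.

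The most recurrent Cacna2d1 fragments lay at 2 places in the stretch. At the right end, chr5:15776005-15782076 was scored in 7 libraries of 4 sets, with 86 in Early 1, 151 in Early 3, 76 in Early 4, 46 in Late 1, 50 in Late 2, 186 in Reactivated 3 and 254 in Reactivated 4. No Basal library listed it, and the Reactivated scores were the highest. By percentile within the library, the Reactivated scores were the lowest, at 40.8 and 46.4 in Reactivated 3 and 4. The percentiles were 58.3, 60.4 and 54.9 in Early 1, 3 and 4, and 89.2 and 89.3 in Late 1 and 2. Near the middle, chr5:15467984-15470243 was the 1 fragment scored in all 4 groups. It scored 7 in Basal 3, 64 and 28 in Early 3 and 4, 556 and 404 in Late 3 and 4, and 1179 and 1046 in Reactivated 3 and 4. Those scores run from Basal 3 up to Reactivated 3/4 without overlap among scored libraries, but each group also has libraries with no score there, and the library medians run from 13 in Basal 3 through 100 and 64, and 160 and 99, to 308 and 313 in the same order. By percentile within the library, the fragment stood at 15.3 in Basal 3 and at 38.6 and 27.5 in Early 3 and 4. It stood at 79.0 and 80.5 in Late 3 and 4 and at 79.7 and 74.5 in Reactivated 3 and 4, so Late and Reactivated overlapped. Whether library depth has a part in the order of the scores was not tested.

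To the left of that middle fragment lay others with different combinations of groups. The fragment chr5:15384848-15387417 scored 8 in Basal 3, 794 and 422 in Early 3 and 4, and 38 and 32 in Late 3 and 4. Its Early scores were above the Late ones, the reverse of the order at the middle fragment just described. The fragment chr5:15393709-15396045 scored 16 in Basal 3, 560 and 307 in Early 3 and 4, and 283 and 313 in Reactivated 3 and 4, with nothing in Late. The fragment chr5:15409771-15412721 had the opposite gap, with 19 in Early 1, 322 and 227 in Late 3 and 4, 398 and 557 in Reactivated 3 and 4, and nothing in Basal.

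Further along, chr5:15481594-15482096 was limited to Early and Late, with 8 in Early 1, 88 and 55 in Early 3 and 4, and 49 and 35 in Late 3 and 4. The fragment chr5:15264169-15267093 was scored outside Late, with 246 in Basal 1, 62 in Early 1, 77 in Reactivated 3 and 71 in Reactivated 4. The groups in which a Cacna2d1 contact was listed thus changed between fragments close to each other.

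The highest Cacna2d1 scores were 2713 and 2811, in Reactivated 3 and 4 at chr5:15356000-15357614. The same fragment scored 203 and 151 in Late 3 and 4. Within the Reactivated libraries the scores stood at percentiles 94.5 and 93.5, so they were high there but not extreme. The highest score in Late was 1012 in Late 3 at chr5:15267096-15268214, where Late 4 had 653. Late 4 had its own highest score, 681, at chr5:15417601-15421895, where Late 3 had 901 and Basal 3 had 34. In Early the highest was 1035 in Early 2 at chr5:15467648-15467981, where Late 3 and 4 had 79 and 54. Over all libraries the 136 Cacna2d1 scores ran from 5 to 2811 with a median percentile of 51.4. The medians in Late 1 and Late 2, 86.6 and 80.3, were the highest of any library with a Cacna2d1 score, although their scores were low in absolute terms, at most 47 and 50.

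Libraries of a set repeated each other closely at Cacna2d1. Early 3 and 4 shared 11 of 11 fragments, Reactivated 3 and 4 shared 15 of 15, Late 3 and 4 shared all 19 of the smaller library, and Late 1 and 2 shared 5 of 6. The ratio of the second library's score to the first's ran from 0.404 to 0.629 in Early 3/4, 0.542 to 1.18 in Late 3/4 and 0.792 to 1.5 in Reactivated 3/4. Between sets of a group, sharing was low in Basal and Early as well as in Late. Basal 1/2 with 3 fragments and Basal 3 with 12 shared none. Early 2 with 2 fragments shared none with Early 1 or Early 3/4, and Early 1 and Early 3/4 shared 2. The contrast between the repetition within sets and this lack of sharing between them is why values are also given with each set counted once.

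Many of these fragments were direct neighbours on the chromosome. Of the 53, 24 (45.3%) had an adjacent fragment, 3 bp away by the file's coordinates, that was also listed for Cacna2d1, against 14.8% of all listings and 21.4% in the other 300 promoters with at least 20 fragments. They formed 8 runs. The longest held 5 fragments, chr5:15467648-15474081, and was touched by 8 libraries, none of which scored all 5. A run of 3 at chr5:15776005-15790792 was scored whole in Late 1 and Late 2, which placed their contacts at the right end. Another run of 3, chr5:15384848-15389400, was scored whole in Basal 3, and chr5:15346566-15361768 was scored whole in Late 3.

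Outside the stretch Cacna2d1 had 7 scattered fragments on chromosome 5. The most repeated was chr5:20419270-20435517, 4.58 Mb to the right, with 235 in Basal 1, 147 in Basal 2, 804 in Reactivated 3 and 819 in Reactivated 4. It was empty in every Early and Late library, the same libraries as the farthest right Cacna2d2 fragment near its recurrent one. The fragment was also listed with the promoter of Rsbn1l, so the score is not Cacna2d1's alone. The most distant, chr5:143050276-143056470, 127 Mb away and shared with Mmd2, scored 23 in Late 2, 1466 in Reactivated 3 and 1512 in Reactivated 4.

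The remaining outlying fragments were each seen in 1 or 2 libraries. The fragment chr5:3864326-3869068, 11.2 Mb to the left, scored 97 in Early 2 and 22 in Late 1, and chr5:7855134-7858193, 7.2 Mb to the left, scored 22 in Basal 3. To the right, Early 1 alone scored 359 at chr5:16380989-16382548, 78 at chr5:17557488-17558432 and 108 at chr5:27138402-27144486, at 0.545, 1.72 and 11.3 Mb. Early 1 therefore supplied 3 of the 7 outlying fragments. Within the stretch, chr5:15346566-15355997 was also listed for Sema3e, with 109 in Late 3. Sema3e is a semaphorin gene that precedes Cacna2d1 in the RefSeq gene order, with several genes between them. In all, 3 Cacna2d1 and 2 Cacna2d2 fragments were shared with another promoter, and 15.4% of all listings were.

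In the fit over all 36353 listings, limma on asinh(score) called none in any of the 6 comparisons between groups at an adjusted p threshold of 0.05 (Benjamini-Hochberg), so 0% of the background and 0 of the 59 member listings passed. The comparisons share their groups and are not independent of each other. At an unadjusted p under 0.05, members and all listings stood at 7 (11.9%) and 3868 (10.6%) for Early against Basal, and at 8 (13.6%) and 4698 (12.9%) for Late against Basal. For Reactivated against Basal they stood at 7 (11.9%) and 7362 (20.3%), and for Late against Early at 14 (23.7%) and 5505 (15.1%). For Reactivated against Early they stood at 10 (16.9%) and 7743 (21.3%), and for Reactivated against Late at 17 (28.8%) and 9507 (26.2%). These contrasts include those by which the genes were singled out, so nothing is read from the shares.

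Fragments whose groups did not overlap were rare. The recurrent Cacna2d2 fragment was the 1 of 59 members in which Early lay above Basal, as did 57 of all listings (0.157%), and in which Late lay above Basal, as did 114 (0.314%). It was also the 1 member with Late above Early, beside 104 listings (0.286%), with Reactivated below Early, beside 44 (0.121%), and with Reactivated below Late, beside 127 (0.349%). No Cacna2d1 fragment separated any pair of groups. The fitted differences of the Cacna2d2 fragment were 6.26 for Early against Basal and 7.79 for Late against Basal (standard error 2.94 for both), and -6.26 for Reactivated against Early and -7.79 for Reactivated against Late (standard error 2.72 for both). None of these passed the adjusted threshold in that fit. These 4 did pass without Reactivated 1 and 2, without Early 1, without Basal 3 and without the variance trend of the fit. They did not pass when each library set entered as its mean. Without Reactivated 1 and 2, 9127 of 36353 listings passed for Reactivated against Early and 9121 for Reactivated against Late. Without Basal 3, 2093 passed for Early against Basal and 2237 for Late against Basal. The gene was chosen on these scores, so nothing is read from these passes.

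Counted as calls per promoter, differences were smaller than their moderated standard errors from the fit for both genes in nearly all comparisons. For Cacna2d1 the differences in calls were 4.17 (standard error 8.03) for Early against Basal, 7.67 (8.03) for Late against Basal, 2.17 (8.03) for Reactivated against Basal, 3.5 (7.44) for Late against Early, -2 (7.44) for Reactivated against Early and -5.5 (7.44) for Reactivated against Late. Without Reactivated 1 and 2 the last of these turned to 2 and Reactivated against Early to 5.5. For Cacna2d2 they were 1.33 (1.15), 0.833 (1.15), 0.833 (1.15), -0.5 (1.07), -0.5 (1.07) and 0 (1.07) in the same order, so only Early against Basal exceeded its standard error. Without Reactivated 1 and 2, Cacna2d2 in Reactivated against Early turned to 1. With only the fragments listed for a single promoter, Cacna2d2 in Reactivated against Basal turned to -0.167. Limma on calls over 4403 promoters called 0 promoters (0%) in each comparison, members included. At an unadjusted p under 0.05 it counted 201, 373, 391, 420, 473 and 634 promoters (4.57% to 14.4%) in that order, with neither member among them.

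The number of calls rose with the total of the library. Over the 15 libraries Cacna2d1 calls had a Spearman correlation of 0.924 with the calls of all promoters, and Cacna2d2 calls one of 0.819. Both are descriptions, since a promoter's calls are part of the total and libraries of a set are not independent. Late 3 and 4 gave 20 and 19 Cacna2d1 calls, with 7806 and 7651 calls in all. Reactivated 3 and 4 gave 15 and 15, with 11068 and 11658 calls in all. Each of these pairs is 1 library set.

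Per 1000 calls of the library, Cacna2d1 had 0.66, 0.249 and 2.06 in Basal 1 to 3 and 2.04, 1.2, 2.08 and 1.68 in Early 1 to 4. It had 1.75, 1.87, 2.56 and 2.48 in Late 1 to 4, and 0, 0, 1.36 and 1.29 in Reactivated 1 to 4. All Reactivated values lay below all Late ones, which was so for 7.93% of promoters, and all other pairs of groups overlapped. The Basal mean was 0.99 ± 0.949 (SD, n = 3), and the means were 1.75 ± 0.408, 2.17 ± 0.414 and 0.663 ± 0.766 (SD, n = 4 each) in Early, Late and Reactivated. On this scale the Reactivated mean lay below the Basal one, but this rests on the empty Reactivated 1 and 2, since Reactivated 3/4 alone averaged 1.33. For Cacna2d2 the means were 0.156, 0.42, 0.269 and 0.132, with all Late values above all Basal ones, as in 6.2% of promoters. Reactivated 3/4 alone averaged 0.264, also above Basal. Beyond this scaling, the part of library size in the group differences was not tested.

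**Figure D4:**
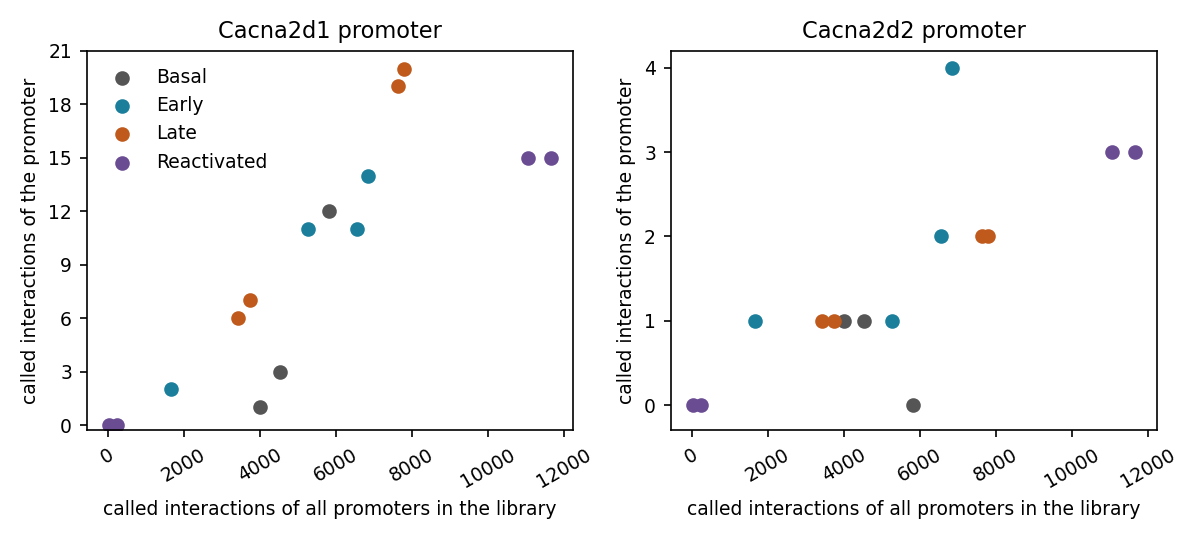
Called interactions of each promoter (vertical axis) against the calls of all promoters in the same library (horizontal axis), 1 point per library, coloured by group. Late 3 and 4, at 7806 and 7651 calls, lie above Reactivated 3 and 4, at 11068 and 11658 calls, for Cacna2d1.

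Of 3430 promoters with a call in at least 5 libraries, those whose calls over the 15 libraries ran most like Cacna2d1 were Clcn3 (Spearman 0.952), a chloride-proton exchanger gene, Rfx3 (0.952), a transcription factor gene with 50 listed fragments, and Gfod1 (0.949). Rfx3 gave 1, 1 and 15 calls in Basal 1 to 3 and 14, 4, 7 and 8 in Early 1 to 4, then 1, 1, 18 and 18 in Late 1 to 4 and 0, 0, 15 and 15 in Reactivated 1 to 4. It had fewer calls than Cacna2d1 in Late 1 and 2, 1 each against 6 and 7. For Cacna2d2 the most alike were Nr3c2 (0.961), the mineralocorticoid receptor gene, Tmem170b (0.955) and Col27a1 (0.947). These promoters share the libraries and their totals with the members.

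Of the 5 genes of the alpha2delta family, 4 had a listed promoter, the others being Cacna2d3 with 12 fragments and Cachd1, a related alpha2delta-like protein gene, with 5. Cacna2d4 had no listed promoter, so its contacts could not be described. Cacna2d3 gave 2, 1 and 1 calls in Basal 1 to 3 and 0, 2, 1 and 2 in Early 1 to 4, with 2, 1, 0 and 0 in Late 1 to 4 and 0, 0, 1 and 1 in Reactivated 1 to 4. Basal thus had its highest mean. Cachd1 was called in Late 1 (2 calls) and Late 2 (4 calls) and in no other library. The highest group mean was Late for Cacna2d1 and Cachd1, Early for Cacna2d2 and Basal for Cacna2d3. For both members this order rests on Reactivated 1 and 2, since Reactivated 3 and 4 had 15 Cacna2d1 and 3 Cacna2d2 calls each.

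**Figure D5:**
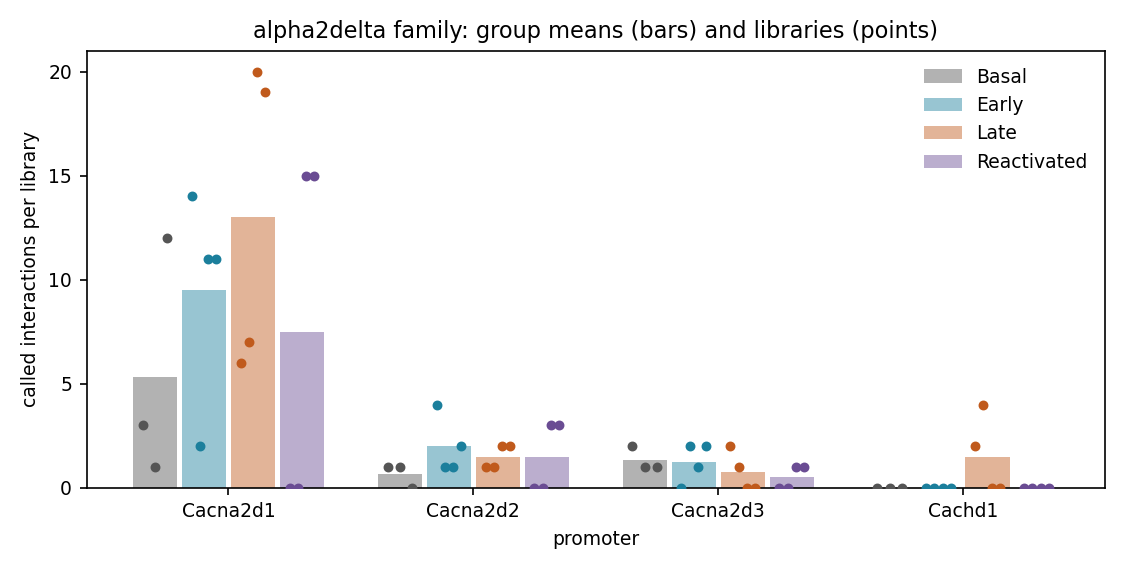
Called interactions per library for the 4 alpha2delta family promoters, with bars for group means and points for libraries. Cacna2d1 stands above the others, with group means from 5.33 to 13, and the other 3 promoters stay at or below 4 calls in every library.

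The other genes of the pathway were taken from lists of 56 genes beside the 2 members. Of these, 24 had a promoter with a call, namely 3 pore-forming subunits, 3 beta subunits, 2 gamma subunits or TARPs, 2 of the family, 6 proteins that bind alpha2delta and 8 of the presynaptic active zone. None of the 24 passed the threshold of limma on calls in any comparison, beside 0% of all promoters. In the order given above, 0, 4, 1, 3, 3 and 5 of them had an unadjusted p under 0.05 in that fit. The shares over all 4403 promoters were 4.57%, 8.47%, 8.88%, 9.54%, 10.7% and 14.4%. Cachd1, Cacnb4, Rims1, Ppfia2, Unc13c, Cacna1g, Grin1 and Erc2 made up the counts among the 24 and were named after their values were seen. Nothing is read from these counts. Late against Early was higher for 17 and lower for 5 (median 0.625 calls), where all promoters had 2167 higher and 1612 lower (median 0). Late against Basal was higher for 15 and lower for 8 (median 0.333), beside a median of 0.167 over all promoters, and Early against Basal was higher for 8 and lower for 13 (median -0.125, against 0).

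Among channel subunits, the promoter with most calls was Cacnb4, a cytoplasmic beta subunit gene mutated in the lethargic mouse. It gave 0 calls in each Basal library, 5, 0, 1 and 1 in Early, 4, 6, 2 and 2 in Late, and 0, 0, 1 and 2 in Reactivated. Like Cacna2d1 it had its highest mean in Late, but its highest library was Late 2 and not Late 3. Cacnb1 averaged 1 call per library, the pore-forming genes Cacna1c (L-type) 0.8 and Cacna1g (T-type) 0.667, and Cacng5 and Cacng8 0.8 and 0.267. All were far below the 9.07 of Cacna2d1, and only Cacnb4 exceeded the 1.47 of Cacna2d2.

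Of the binding partners, Prnp, the prion protein gene, averaged 4.87 calls and Thbs3, a thrombospondin gene, 2.73. All 6 measured partners had a higher mean in Late than in Early (median difference 0.875), as did 49.2% of all promoters, and in Reactivated than in Early (median 1.62), as did 48.6%. Cacna2d1 differed by 3.5 and -2 there, the latter turning to 5.5 without Reactivated 1 and 2. Of the active zone genes, which tether vesicles and channels at the release site, Unc13b averaged 2.6 calls and Rims3 2.13. These are the 2 active zone promoters with most calls, and the other 6 averaged from 0.133 to 1.4, below Cacna2d2.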

How the data were processed

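Promoter-capture Hi-C was measured in 15 libraries, grouped by their titles because the collection days in the treatment labels (0 to 14) conflict with the protocol. The authors deposited 1 interaction score per promoter, HindIII fragment and library, per the file headers, on mm9, per the submitters' processing notes. The aligner, scoring program, filters and any scaling were not given in the sources used here. Depth in reads is unknown. Library sums of scores, over all listings, ran from 3114 to 9590409.

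Listings were fitted on asinh(score), with 0 where none was listed, and promoters on their number of calls, with limma 3.58.1 (R 4.3.3, robust empirical Bayes, variance trend), all 15 libraries in each fit, and Benjamini-Hochberg adjustment over 36353 listings or 4403 promoters. The code was tested on simulated data with independent libraries and, for listings, no absent scores. That test does not show how the fits behave on data as sparse and paired as these. The p-values measure only spread between these libraries. The error of each row was drawn largely toward a variance trend over all rows. A p-value therefore does not measure its row's own spread alone. Descriptions used pandas 2.3.3 and scipy 1.17.1 in Python 3.11.15, with figures by matplotlib 3.10.9.

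The members and gene lists were chosen with earlier results of these data known. Named were both members, every alpha2delta family promoter in the table, at most the 2 promoters with most calls of each other list, and the 3 promoters most like each member. Of 4429 promoter names, 3262 had a RefSeq promoter sequence. Alternatives were other transformations, thresholds, filters and scalings, a replicate block, library sets as means, and leaving out libraries.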

Additional observations from a re-analysis of the deposited data

Results flagged for a closer look

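Groups of 4 libraries were examined for the numbers of calls of both promoters, for all 6 Cacna2d2 fragments and for the 14 Cacna2d1 fragments that lay outside the main stretch or were scored in at least 3 library sets. Other Cacna2d1 fragments were not examined. In 12 of these 47 groups, 1 library stood apart from the other 3 by a gap above the critical value of Dixon's test. In each of them that library held the only score of its group. A group of 4 with a single score always passes that value, so the rate of about 1 in 20 groups that chance flags among continuous values does not apply here, and nothing is read from the number.

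For Cacna2d1, Early 1 stood apart at 5 fragments on chromosome 5, with 62 at the fragment starting at 15264169, 19 at 15409771, 359 at 16380989, 78 at 17557488 and 108 at 27138402. At 3864326, Early 2 stood apart with 97 and Late 1 with 22. At 143050276, Late 2 stood apart with 23. For Cacna2d2, Early 1 stood apart at 3 fragments on chromosome 9, with 86 at 107182258, 9 at 107341621 and 17 at 107353716, and Early 4 with 118 at 106210969.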

How the results depend on the processing

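The fits rest on 3 or 4 libraries per group, most of them in pairs that share fragments, and depth in reads is unknown. The count of listings past the threshold, 0 in every comparison, was also 0 with a replicate block, library sets as means, log2 scores, quantile or library-sum scaling, a filter of 2 libraries and fragments of 1 promoter. With no variance trend it was 142, 201, 146, 57, 5 and 59 (Early, Late and Reactivated against Basal, Late and Reactivated against Early, Reactivated against Late). Without Reactivated 1 and 2 it was 191, 236, 9052, 63, 9127 and 9121, with 13, 14 and 14 of the 59 members in the 3 Reactivated comparisons, beside 24.9%, 25.1% and 25.1% of all listings. Leaving out 1 library each gave 0 to 2093, 0 to 2237 (highest without Basal 3 in both), 0 to 4468, 0 to 93 (without Early 1), 0 to 4688 and 0 to 4929 (without Reactivated 2 in the other 3). Counts above 0 came from leaving out Basal 3 or Early 1 in every comparison and Reactivated 1 or 2 in those of Reactivated.

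Promoters past the threshold numbered 6 (Late against Basal), 1 (Reactivated against Basal), 2 (Late against Early) and 6 (Reactivated against Late) with no variance trend. They numbered 1, 5, 1280, 4, 1293 and 1238 without Reactivated 1 and 2. Per 1000 calls of the library they numbered 2, 15, 9 and 6 in the first 4 comparisons and 3 in Reactivated against Late, and 15 there with calls at a score of 2 or more. Leaving out 1 library each gave 0 to 7 (without Basal 3), 0 to 18, 0 to 89, 0 to 27, 0 to 138 and 0 to 193, highest without Late 3 where Late was compared with Basal or Early and without Reactivated 1 in the Reactivated comparisons. Leaving out Late 1, 2 or 4, or Reactivated 2, also gave counts above 0 in some of these.

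Cacna2d1 differences in calls ran over left-out libraries from 2 to 7.5, 5.33 to 11, -0.333 to 5.5, 1 to 5.83, -4.5 to 0.5 and -8 to -3, so Reactivated against Basal changed sign without Reactivated 3 or 4, and Reactivated against Early without Reactivated 1 or 2. Cacna2d2 differences ran from 0.667 to 1.67, 0.5 to 1, 0.333 to 1.33, -0.833 to 0.167, -1 to 0.167 and -0.5 to 0.5, with the sign of Late and Reactivated against Early turned without Early 1. Per 1000 calls, Reactivated against Basal was -0.328 for Cacna2d1 and -0.0242 for Cacna2d2, and Cacna2d2 in Reactivated against Late was -0.137. Without Reactivated 1 and 2, Cacna2d1 in Reactivated against Early was 5.5, and Cacna2d2 in Reactivated against Basal was 2.33, against Early 1 and against Late 1.5. With only fragments of 1 promoter, Cacna2d2 in Reactivated against Basal was -0.167, against Early -1 and against Late -1. The cause was not tested.

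Same-numbered libraries of different groups did not deviate together (21 pairs, correlations from -0.0468 to 0.0665), so the numbers do not pair them. With the replicate block 0 listings and 0 promoters passed, and Cacna2d1 in Early, Late and Reactivated against Basal differed by 2.5, 6 and 0.5 calls.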
